A study of Homo sapiens with 15 samples.

Results

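Expression of 10 imprinted genes of growth and placental development was followed through the differentiation of human embryonic stem cells to definitive endoderm. They are DLK1, MEG3, RTL1 and DIO3 of the 14q32 domain, IGF2, H19 and CDKN1C of the 11p15 domain, PEG10 of 7q, MEST of 7q32 and PEG3 of 19q13. All 10 had an entry among the 23346 gene symbols of the count table. The set was chosen by the RTL1 level in CPM, which is much higher on day 2 than on days 0 and 1, so RTL1 is described without a test, and so is every member's step to day 2.

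H9, an established human embryonic stem cell line, was sampled on days 0 to 4 with 3 libraries per day, numbered 1, 2 and 4, which gave 15 polyA-selected RNA-seq libraries. Day 0 cells were undifferentiated and in E8 medium, after maintenance and single-cell passage in it. From then on the base medium was Advanced RPMI, with activin A plus the GSK3 inhibitor CHIR99021 over the opening day and activin A alone afterwards. Day 0 therefore differs from the later days in medium as well as in time, and these cannot be told apart. All libraries come from a single line, and whether same-day libraries were grown as separate cultures is not in the labels, so the p-values speak of the spread among these libraries only.

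An imprinted gene is read mainly from the copy inherited from 1 parent. At 14q32 the paternal copy gives DLK1, RTL1 and DIO3, and the maternal copy gives the noncoding MEG3 and MEG8 and a large group of small RNAs. At 11p15 the paternal copy gives IGF2 and the maternal copy gives H19 and CDKN1C. PEG10, PEG3 and MEST are read from the paternal copy. Many of these genes are strongly active in placenta and fetal tissues, where those of paternal origin tend to promote growth and several of maternal origin restrain it. The counts do not separate the alleles, so they give levels only and say nothing of imprinting itself.

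Total counts ranged from 54723184 to 145857940 per library. The 6 markers of definitive endoderm (SOX17, FOXA2, CXCR4, CER1, HHEX and GATA6) summed to 27.0 to 33.9 CPM (counts divided by the TMM-scaled library size, times 1e6) on day 0 and to 4230 to 6188 CPM on day 2, as the labels of an endoderm differentiation describe. Replicate 1 of days 3 and 4 stood apart, with marker sums of 1037 and 886 CPM against 2972 to 5574 CPM in the other libraries of those days. CER1 was the largest part of these sums, at 478 and 397 CPM in replicate 1 against 1867 to 4478 CPM in the others. GATA6 was lower there too (143 and 124 CPM against 569.8 to 788 CPM). FOXA2 was not, at 252 and 171 CPM against 48.2 to 210 CPM. In replicate 1 of day 3 the mesodermal gene HAND1 was at 262 CPM, against 47.1 and 107 CPM in the other libraries of that day. Other mesoderm markers did not all follow it, and FOXF1 was lowest there (6.39 CPM against 10.3 and 12.4 CPM). MESP1 (12.4 CPM against 1.2 and 35.9 CPM) and TBX6 (3.41 CPM against 0.841 and 7.91 CPM) lay between the others. MEOX1 was also highest there, at 0.258 CPM. Results on days 3 and 4 are therefore also given without these libraries where that changes them.

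RTL1 encodes a retrotransposon-derived protein needed for the fetal vessels of the placenta, and its transcript lies opposite microRNA genes of the maternal strand. Mature microRNAs from MIR431, MIR433, MIR127, MIR432 and MIR136 pair with RTL1 along their whole length and are known to cut it. In the GENCODE v29 transcript of RTL1, which has 5398 bases, all 10 mature sequences of these 5 genes were found in reverse complement. They carry 10 distinct seeds, so none of them shares a seed with another. A single arm of each gene is shown from RefSeq (GRCh38.p14, plus strand of chromosome 14), with the seed, bases 2 to 8, in capitals, because these are the sequences that lie opposite the transcript that rose.
hsa-miR-431-5p (chr14:100881026-100881046): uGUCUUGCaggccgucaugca
hsa-miR-433-3p (chr14:100881949-100881970): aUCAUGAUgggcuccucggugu
hsa-miR-127-3p (chr14:100883035-100883056): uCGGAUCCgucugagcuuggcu
hsa-miR-432-5p (chr14:100884496-100884518): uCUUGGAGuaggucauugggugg
hsa-miR-136-5p (chr14:100884716-100884738): aCUCCAUUuguuuugaugaugga
These sites run from base 4105 to 4125 of the RTL1 transcript for miR-431-5p down to base 413 to 435 for miR-136-5p. The entries of the 5 microRNA genes were at 0 in all 15 libraries, and since polyA selection does not capture mature microRNAs this gives no measure of their level.

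The start sites of RTL1, DIO3 and MEG3 are shown next, because RTL1 and DIO3 were both far higher on day 2 while MEG3 stayed near 0. Each window runs from 250 bases before to 50 bases after the RefSeq start (GRCh38.p14), written along the gene's own strand. Capitals mark 4 words, read on either strand. The word for the motif near the start that binds the general transcription machinery is TATAAA. The word bound by the factor NF-Y is CCAAT. The word bound by SP1 is GGGCGG. The full cyclic AMP response element is TGACGTCA. Searched as well, and with no match in the windows shown, were a forkhead word, TGTTTAC (in 3.42% of all windows of this length), then a word for the GATA factors, AGATAA (10.4%), then a word for T-box factors, TCACACCT (0.982%), and finally a word for paired-like homeobox factors, TAATCC (6.36%). No marked words overlap.
RTL1 (chr14:100903673-100903972, minus strand): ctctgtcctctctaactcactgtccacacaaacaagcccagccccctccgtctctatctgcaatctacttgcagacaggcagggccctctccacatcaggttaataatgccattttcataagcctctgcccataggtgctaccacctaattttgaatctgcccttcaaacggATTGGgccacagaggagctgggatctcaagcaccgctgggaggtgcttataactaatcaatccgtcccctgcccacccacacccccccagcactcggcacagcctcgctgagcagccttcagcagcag
DIO3 (chr14:101561245-101561544, plus strand): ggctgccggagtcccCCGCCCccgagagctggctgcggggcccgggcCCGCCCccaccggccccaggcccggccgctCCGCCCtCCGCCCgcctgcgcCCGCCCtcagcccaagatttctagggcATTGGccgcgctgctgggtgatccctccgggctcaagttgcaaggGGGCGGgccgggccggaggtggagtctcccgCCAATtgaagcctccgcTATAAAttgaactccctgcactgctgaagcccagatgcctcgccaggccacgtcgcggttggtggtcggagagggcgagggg
MEG3 (chr14:100825858-100826157, plus strand): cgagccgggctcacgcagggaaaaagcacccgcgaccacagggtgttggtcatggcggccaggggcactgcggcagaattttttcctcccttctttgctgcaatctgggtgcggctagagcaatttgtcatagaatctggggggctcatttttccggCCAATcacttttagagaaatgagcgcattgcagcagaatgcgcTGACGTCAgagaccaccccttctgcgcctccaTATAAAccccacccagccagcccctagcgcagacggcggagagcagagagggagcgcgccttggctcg
The RTL1 window holds 6 CG pairs, and 33.8% of all 34943 windows hold fewer. Its single marked word is the NF-Y word on the opposite strand, found in 34.6% of all windows. The DIO3 window holds 28 CG pairs, more than 73.9% of windows, with TATAAA beginning 32 bases before the start (in 11.6% of windows), 2 NF-Y words and 6 SP1 words (the latter in 44.9% of windows). The MEG3 window holds 19 CG pairs, the first 2 of the marked words and the cyclic AMP response element, which occurs in 1.84% of windows. It is the first of 3 overlapping MEG3 windows, and the others hold 17 and 18 CG pairs and the same words. TATAAA begins at -18, -28 and -42 bases from the 3 starts. These are matches of letters and not measured binding. Windows for H19 and MEST were also present in the table.

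RTL1 was close to absent in stem cells and on day 1, and was plainly present in every library from day 2 on. On day 0 it stood at 0.26, 0.0794 and 0.152 CPM in replicates 1, 2 and 4, and on day 1 at 0.0555, 0.0294 and 0.145 CPM. The day 1 values rest on 4, 2 and 16 counts. On day 2 the libraries read 16.2, 21.1 and 15.1 CPM, with no overlap with the earlier days. The day mean went from 0.0766 ± 0.0605 CPM to 17.5 ± 3.23 CPM (SD, n = 3), a 228-fold difference of means, and the lowest day 2 library was 104-fold above the highest day 1 library. As bulk measurements, these levels cannot tell apart fewer cells with the transcript and less of it per cell.

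RTL1 was highest on day 3 and lower again on day 4. Day 3 libraries read 24.6, 31.0 and 37.4 CPM, all above those of day 2, and their mean was 31.0 ± 6.38 CPM (SD, n = 3). Day 4 libraries read 9.8, 23.1 and 14.5 CPM, all below those of day 3, with a mean of 15.8 ± 6.74 CPM (SD, n = 3). The day 4 level was 96.2-fold that of day 0. Groups of 3 libraries lay fully apart in that way for 9.1% of all 17401 tested genes upward from day 2 to day 3, and for 4.32% downward from day 3 to day 4. Replicate 1 of day 3, which had the low sum of endoderm markers, held the lowest RTL1 level of that day.

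**Figure D1:**
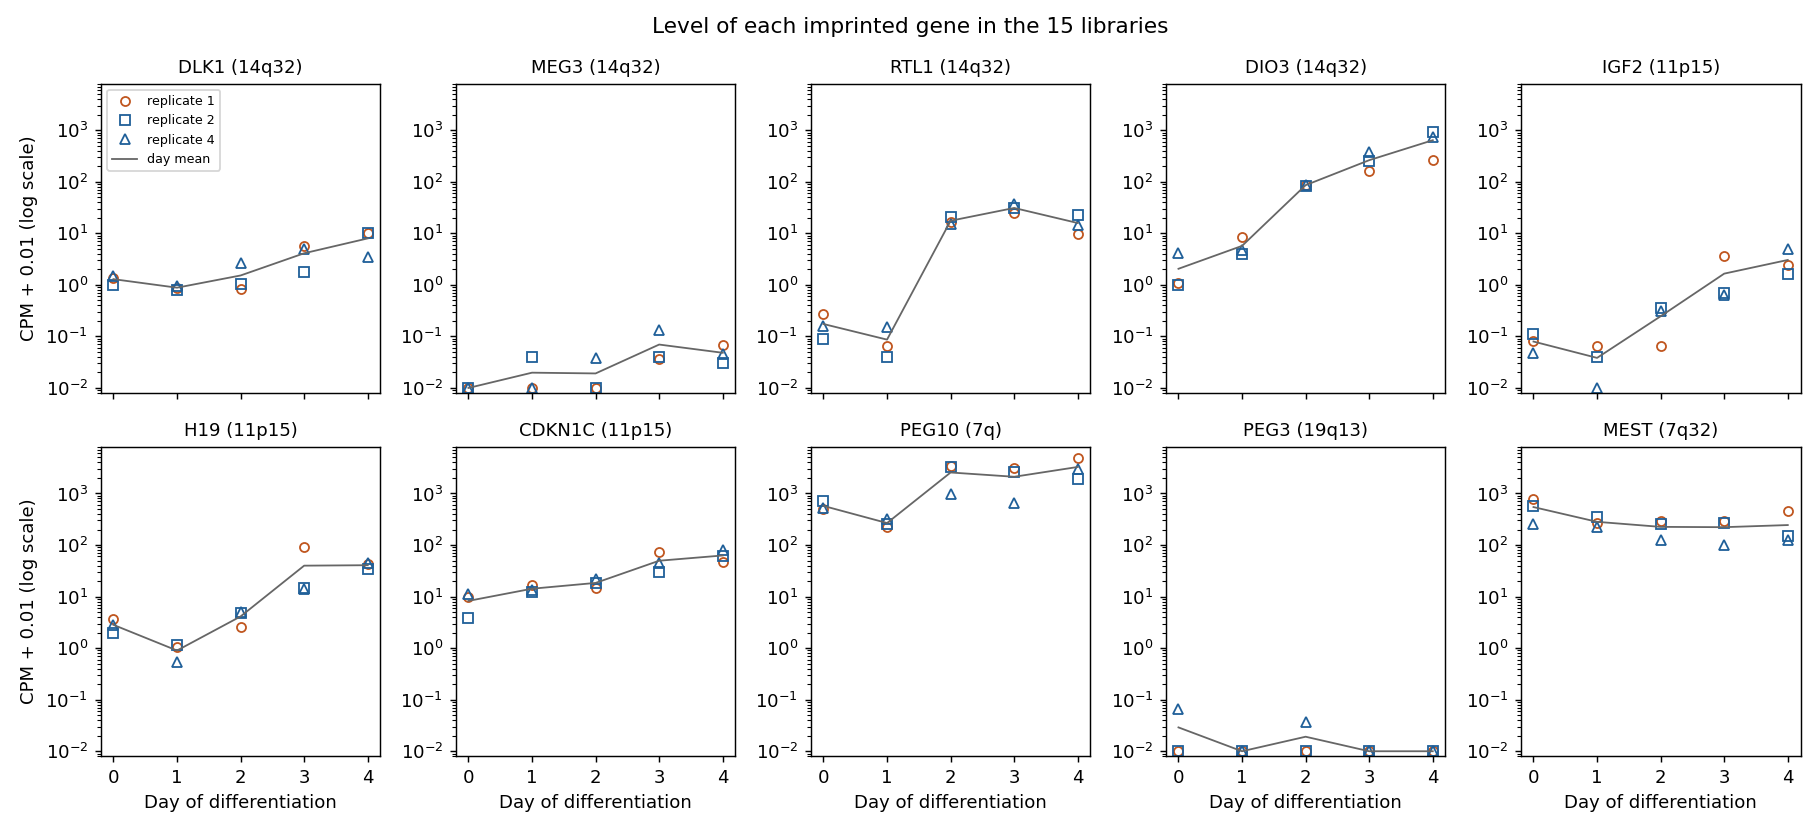
Level of each of the 10 genes in all 15 libraries, as CPM plus 0.01 on a log axis against the day of differentiation. Points are libraries, with replicate 1 in orange and replicates 2 and 4 in blue, and lines join day means. RTL1 stays under 0.3 CPM to day 1 and at 9.8 CPM or above from day 2, while MEG3 and PEG3 lie near the bottom of the axis throughout.

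DIO3, the deiodinase that inactivates thyroid hormone and the distal coding gene of the 14q32 domain, had the largest rise of the 7 tested members between days 0 and 4. It stood at 1.06, 0.973 and 4.07 CPM on day 0, at 8.29, 3.94 and 4.83 CPM on day 1 and at 86.7, 83.6 and 87.2 CPM on day 2. The day 2 libraries differed by little from each other (85.8 ± 1.97 CPM, SD, n = 3), and their mean was 15.1-fold that of day 1. On day 3 the libraries read 162, 253 and 371 CPM, and on day 4 they read 263, 920.5 and 734 CPM. Unlike RTL1, DIO3 was not lower on day 4, where its mean was 639 ± 339 CPM (SD, n = 3) and its range overlapped that of day 3. DIO3 rose from day 0 to day 4 by 8.29 ± 0.73 (log2 ± SE, adjusted p = 1.45e-06; 9.36 without replicate 4 of day 0) and from day 1 to day 3 by 5.53 ± 0.64 (adjusted p = 4.29e-05). These and the adjusted p-values that follow come from edgeR's quasi-likelihood test on all 17401 genes with Benjamini-Hochberg adjustment, and a gene is called under 0.05.

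DLK1, a secreted and membrane-bound relative of the Notch ligands that marks many fetal progenitors, rose late and stayed low. It was at 1.37, 0.973 and 1.48 CPM on day 0 and at 0.86, 0.793 and 0.959 CPM on day 1. Day 2 libraries read 0.829, 1.03 and 2.69 CPM and overlapped both earlier days. The day 3 values were 5.58, 1.74 and 4.95 CPM, and the day 4 values were 10.3, 10 and 3.53 CPM. DLK1 rose by 2.23 ± 0.56 on the log2 scale from day 1 to day 3 (± SE, adjusted p = 0.0109) and by 2.64 ± 0.57 from day 0 to day 4 (adjusted p = 0.00252). RTL1 and DIO3 thus had a large step to day 2 that DLK1, whose mean on that day was 1.74-fold that of day 1 with overlapping libraries, did not show.

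MEG3, the noncoding transcript of the maternal copy, was barely detected. It had 0 counts in all 3 day 0 libraries, where a count of 0 allows up to 0.0284 to 0.0315 CPM. Its highest value was 10 counts, or 0.121 CPM, in replicate 4 of day 3, and 8 of 15 libraries had any count. MEG8, further along the same strand, had 14 counts over 3 libraries. MEG3 and PEG3 were the 2 of 10 members below the filter on low counts and have no test. The libraries were made with strand information, but the sources used here do not say whether the counting used it, and sense and antisense reads over RTL1 cannot be told apart. The near-0 MEG3 and MEG8 entries, and those at 0 for the 5 microRNA genes, are the values at hand for the opposite strand.

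Of the 12 other genes of the 14q32 list that the table holds, 10 were tested. From day 0 to day 4, 3 rose, 1 fell and 6 were not called, where 18.0% of all genes rose and 16.2% fell, and their median log2 difference was 0.64 against -0.02 over all genes. DIO3OS, the noncoding gene antisense to DIO3, rose from 0.0145 ± 0.0127 to 0.981 ± 0.543 CPM (SD, n = 3; log2 difference 6.0 ± 1.0 SE, adjusted p = 0.000366), and its reads may be shared with DIO3. Being near 0 on day 0, DIO3OS passed the filter on low counts through later libraries, so this call depends on the rise itself. EVL, an actin regulator, rose by 1.3 ± 0.37 (adjusted p = 0.0141) and WARS, a tRNA synthetase, by 1.01 ± 0.31 (adjusted p = 0.0199). YY1, a zinc finger factor, fell by 0.82 (log2, SE 0.29, adjusted p = 0.0408). The EVL call was lost on leaving out 3 of the 15 libraries in turn, that of WARS on leaving out 2 and that of YY1 on leaving out 11. From day 1 to day 3, DIO3OS was the only gene of the list called (log2 difference 2.82 ± 0.8 SE, adjusted p = 0.0202), a call lost without any of 4 libraries, and without replicate 2 of day 3 the difference was 2.15.

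**Figure D2:**
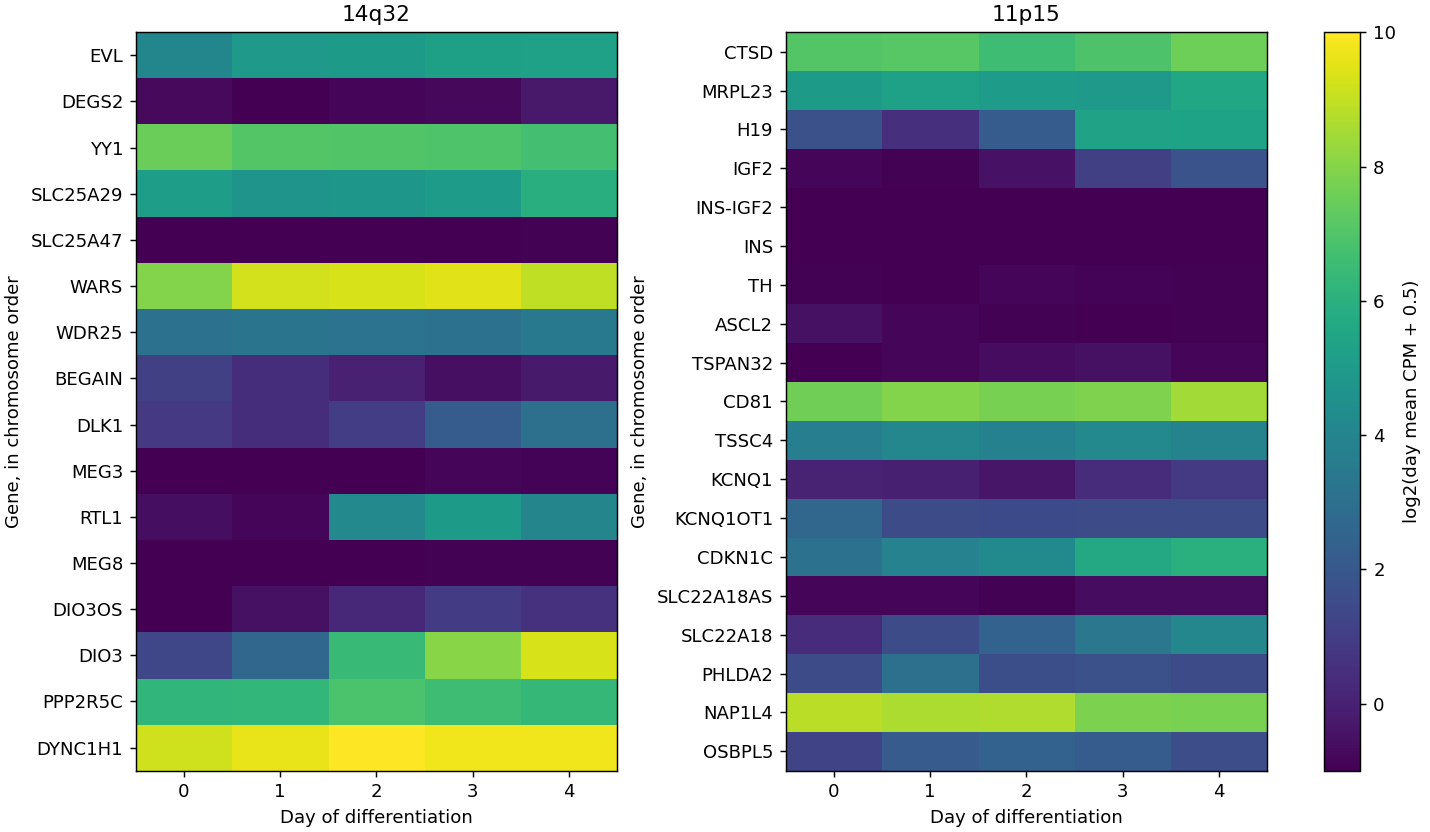
Day means of the members and their listed neighbours at 14q32 (left) and 11p15 (right), as log2 of CPM plus 0.5, with genes down the side in chromosome order and days along the bottom. At 14q32 the bright change lies at RTL1 and DIO3, while BEGAIN, WDR25, PPP2R5C and DYNC1H1 were not called between days 0 and 4. At 11p15 it lies at H19, IGF2, CDKN1C and SLC22A18.

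IGF2, the fetal insulin-like growth factor, and H19, the noncoding RNA that shares its enhancers, were low to day 2 and higher from day 3. IGF2 read 0.071, 0.0993 and 0.0381 CPM on day 0 and 0.0555, 0.0294 and 0 CPM on day 1. It was at 0.0552, 0.351 and 0.301 CPM on day 2 and at 3.6, 0.691 and 0.631 CPM on day 3. On day 4 the libraries read 2.47, 1.58 and 5.05 CPM. The rise from day 0 to day 4 was 5.42 ± 1.03 (log2 ± SE, adjusted p = 0.00101). From day 1 to day 3 the fitted rise was 5.91 ± 1.11 (adjusted p = 0.00166), but it starts from 4, 2 and 0 counts, so its size depends on the fit, and it was 4.62 without replicate 1 of day 3, 5.25 without replicate 4 of day 1 and 6.94 without replicate 1 of day 1. The level stayed low in all libraries, at no more than 5.05 CPM. Because days 0 and 1 held so few counts, IGF2 passed the filter on low counts through its later libraries, so its calls depend on the rise itself.

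H19 read 3.62, 1.99 and 2.85 CPM on day 0, 1.03, 1.12 and 0.525 CPM on day 1, and 2.54, 4.82 and 4.96 CPM on day 2. Day 1 was thus below day 0 in all libraries, a difference of -1.67 ± 0.61 on the log2 scale that did not pass the test (adjusted p = 0.101). On day 3 the libraries read 91.1, 14.4 and 13.9 CPM, and on day 4 they read 42.8, 33.7 and 45.3 CPM. H19 rose by 5.49 ± 0.71 on the log2 scale from day 1 to day 3 (± SE, adjusted p = 9.93e-05) and by 3.85 ± 0.66 from day 0 to day 4 (adjusted p = 0.000442). It also rose from day 2 to day 3 by 3.28 ± 0.64 (adjusted p = 0.024). Without replicate 1 of day 3 the difference between days 2 and 3 was 1.78 (adjusted p = 0.113), and without replicate 1 of both late days its adjusted p was 0.0793. The call was also lost without replicate 1 of day 2 (adjusted p = 0.178) and without replicate 2 of day 2 (adjusted p = 0.12).

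The library with the most H19, replicate 1 of day 3, also held the highest IGF2, CDKN1C and DLK1 of that day. In it EOMES, a streak and endoderm factor, was at 60.3 CPM against 452 and 326 CPM in the others, and CER1, a secreted Nodal inhibitor of anterior endoderm, at 478 CPM against 4478 and 1867 CPM. GATA6 was at 143 CPM against 673 and 788 CPM. Of the other endoderm markers, CXCR4 was lowest there too (36.5 CPM against 159 and 42.8 CPM). SOX17 (121 CPM against 103 and 224 CPM) and HHEX (6.69 CPM against 45.3 and 3.08 CPM) lay between the others. FOXA2 was highest there, at 252 CPM against 116 and 48.2 CPM. The part of these marker differences in the H19 level was not tested. Without replicate 1 of day 3 the H19 rise from day 1 to day 3 was 4.02. Without replicate 1 of days 3 and 4, H19 rose by 4.05 on the log2 scale from day 1 to day 3 and IGF2 by 4.65, and both remained called.

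CDKN1C encodes the CDK inhibitor p57, which slows the cell cycle in the fetus and placenta, and its mean was higher on each successive day. It read 9.75, 3.87 and 11.1 CPM on day 0, 17.0, 12.2 and 13.2 CPM on day 1, and 14.5, 18.4 and 22.3 CPM on day 2. On day 3 it was at 73.8, 29.9 and 45.0 CPM, and on day 4 at 47.0, 62.0 and 79.0 CPM. CDKN1C rose by 1.81 ± 0.41 on the log2 scale from day 1 to day 3 (± SE, adjusted p = 0.00569) and by 2.93 ± 0.43 from day 0 to day 4 (adjusted p = 0.000134). Every day 3 library was above every day 2 library, yet that difference of 1.43 ± 0.41 was not called (adjusted p = 0.103).

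Of the 16 other 11p15 genes in the table, 13 were tested, and 1 rose and 2 fell from day 0 to day 4. Over all genes 18.0% rose and 16.2% fell. Their median log2 difference was 0.53, against -0.02 over all genes. SLC22A18, an organic cation transporter gene near CDKN1C and read mainly from the maternal copy, rose from 0.826 ± 0.694 to 16.6 ± 5.27 CPM (SD, n = 3; log2 difference 4.32 ± 0.72 SE, adjusted p = 0.000379), or by 5.33 without replicate 4 of day 0. KCNQ1OT1, the paternal noncoding RNA of the CDKN1C side of the domain, fell by 1.23 (log2, SE 0.44, adjusted p = 0.0408), and the histone chaperone gene NAP1L4 fell by 1.1 (SE 0.39, adjusted p = 0.0406). Each of these falls was lost as a call on leaving out 8 of the 15 libraries in turn. KCNQ1OT1 overlaps KCNQ1 on the other strand.

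PEG10, a retrotransposon-derived gene like RTL1 and needed for the placenta, was the most abundant of the 10 genes from day 2 on. It read 506, 700.3 and 515 CPM on day 0 and 224, 257 and 319.8 CPM on day 1. On day 2 it was at 3434, 3241 and 987 CPM, all above the earlier days, and the mean of 2554 ± 1360.2 CPM (SD, n = 3) was 9.57-fold that of day 1. Day 3 libraries read 3053, 2612 and 660.2 CPM, and day 4 libraries 4835, 1919 and 3050.1 CPM. PEG10 rose by 2.98 ± 0.55 on the log2 scale from day 1 to day 3 (± SE, adjusted p = 0.00152) and by 2.51 ± 0.54 from day 0 to day 4 (adjusted p = 0.00249). SGCE, its neighbour on the opposite strand, rose from 4.68 ± 1.12 to 15.3 ± 4.2 CPM between days 1 and 3 (SD, n = 3; adjusted p = 0.00361).

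MEST, a hydrolase-like gene of the paternal copy, had lower means after day 0 but was called in none of the comparisons in the fit without a replicate block. It read 795, 583 and 257 CPM on day 0, 263, 355 and 228 CPM on day 1 and 295, 258 and 123 CPM on day 2. Day 3 libraries read 295, 267 and 102 CPM and day 4 libraries 456, 149 and 128 CPM. The difference between days 4 and 0 was -1.16 ± 0.54 on the log2 scale (adjusted p = 0.107). It was called with the replicate number as a block (-1.18, adjusted p = 0.00889), without replicate 4 of day 0 (-1.46, adjusted p = 0.0428), without replicate 1 of day 4 (-1.90, adjusted p = 0.0123) and without replicate 1 of days 3 and 4 (-1.93, adjusted p = 0.0128). Overlapping MESTIT1 had 480 counts over all libraries and may share reads with MEST.

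Replicate 4 was the lowest library for both PEG10 and MEST on days 2 and 3. For MEST it was also the lowest on days 0, 1 and 4, at 257, 228 and 128 CPM, but for PEG10 it was not. In replicate 4 POU5F1, a core pluripotency factor, read 215, 199 and 119 CPM on days 2, 3 and 4, against 16.8 to 43.4 CPM in the other libraries of those days. PRDM14 and TDGF1 were also highest in replicate 4 on these days, and NANOG and SOX2 were on days 3 and 4. DPPA4 was lowest in replicate 4 on days 2, 3 and 4, at 112, 125 and 104 CPM. SOX2 was lowest there on day 2, at 4.25 CPM. The part of these marker differences in the PEG10 and MEST levels was not tested.

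PEG3, a paternal zinc finger gene, had 8 counts in all, in replicate 4 of day 0 (6 counts) and replicate 4 of day 2 (2 counts). It was at 0 in the other 13 libraries. The nearby entries ZIM2 and PEG3-AS1 were at 0 in all of them.

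Set against all genes, most of the 7 tested members other than RTL1 were called upward in the comparisons of day 3 with day 1 and of day 4 with day 0, and 1 in that of day 3 with day 2. Between days 1 and 3, 6 of 7 rose, where 21.0% of all genes were called (11.9% upward), and the members' median log2 difference was 2.98 against 0.0 over all genes. Between days 0 and 4 the same 6 rose, where 34.2% were called (18.0% upward), with a median of 2.93 against -0.02. None fell in these comparisons. IGF2, with 10 counts or fewer in each library of days 0 and 1, passed the filter through its later and higher libraries. Its calls and its place among the 7 are therefore not independent of its rise, and MEG3 and PEG3, below the filter, are not in the count. Between days 0 and 1 none of the 7 was called, at a background of 10.4% (5.49% upward and 4.88% downward), and at unadjusted p under 0.05 there were DIO3, H19 and PEG10. Between days 2 and 3 only H19 was called, at a background of 0.948% (0.661% upward). With the replicate number as a block, CDKN1C was called there too (1.37, adjusted p = 0.0497), and 590 genes were called against 165. Between days 3 and 4 edgeR called none of the 7 and 0.0% of all genes, with 1074 genes at an unadjusted p under 0.05, DIO3 among them, and 66 genes called by DESeq2, with no member. The comparisons share libraries, so their calls are not independent of each other.

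**Figure D3:**
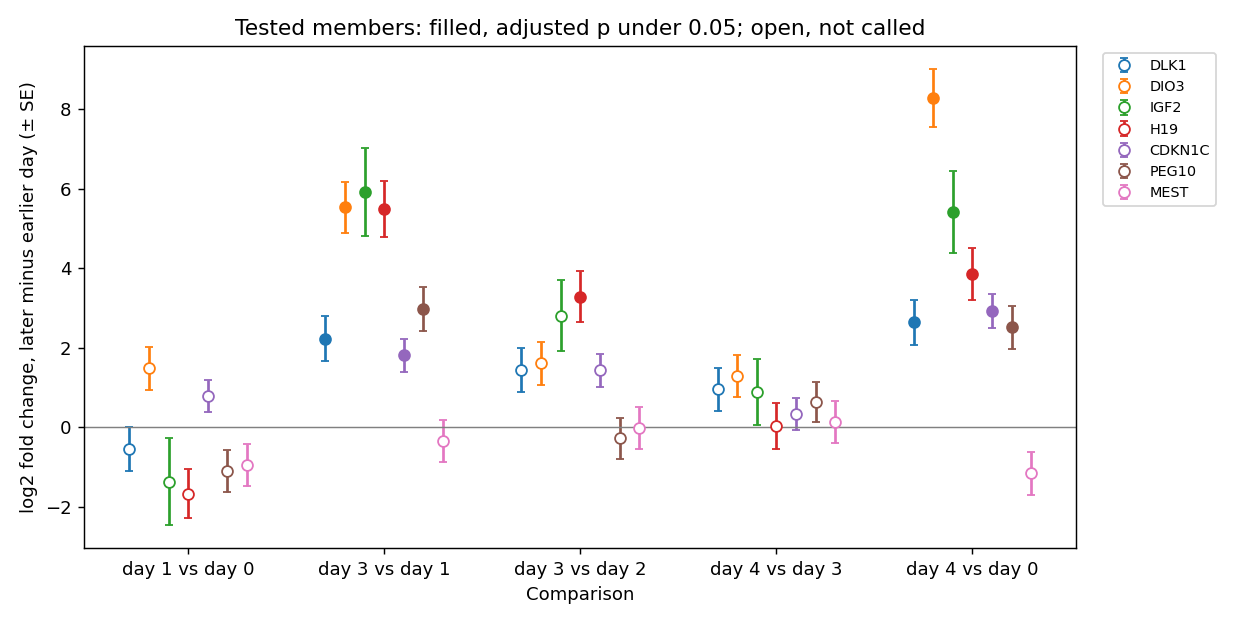
Log2 difference of the 7 tested members, later minus earlier day, in the 5 tested comparisons (points, with bars of 1 SE either way). Filled points passed an adjusted p of 0.05 and open points did not. In the comparisons of day 3 with day 1 and of day 4 with day 0, 6 filled points lie above 0 and MEST lies open below it.

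In the step to day 2, which the choice of the set used, RTL1, DIO3, H19 and PEG10 were higher than on day 1 in all libraries. The background for such a gap is 17.2% of genes upward and 18.5% downward, and nothing is read from the count. H19 was 4.62-fold higher by its means, but only 1.46-fold above day 0, whose libraries it overlapped. CDKN1C (1.3-fold), IGF2 (8.35-fold at very low counts), DLK1 and MEST (0.799-fold) overlapped day 1. Against day 0, where 18.0% of genes were higher in all libraries, this held for RTL1 (106-fold), DIO3 (42.1-fold), PEG10 (4.45-fold) and CDKN1C (2.23-fold).

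Levels can be compared between genes only per length, here as CPM per kilobase of merged GENCODE v29 exons. On day 4 the order was PEG10 at 489 ± 219.8, DIO3 at 304 ± 161, MEST at 51.0 ± 38.3, CDKN1C at 25.3 ± 6.46 and H19 at 14 ± 2.11 CPM per kilobase (SD, n = 3). RTL1 followed at 2.92 ± 1.25, DLK1 at 1.5 ± 0.721, IGF2 at 0.395 ± 0.235 and MEG3 at 0.00164 ± 0.000844 CPM per kilobase (SD, n = 3), with PEG3 at 0. The libraries of PEG10 and DIO3 overlapped in this order, as did those of MEST and CDKN1C and those of RTL1 and DLK1. On day 0 the order was led by MEST at 114 ± 56.5 and PEG10 at 85.7 ± 16.4 CPM per kilobase (SD, n = 3), also with overlap, while RTL1 stood at 0.0304 ± 0.0169.

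Other imprinted genes, placed in lists without a check of the copy each is read from, were called in both directions. Of 19 tested genes in a list mostly read from the paternal copy, 4 rose and 4 fell between days 0 and 4. The median of the 19 was -0.31 against -0.02 over all genes. In this comparison 18.0% of all genes were called upward and 16.2% downward. SNRPN, a splicing protein gene, rose from 2.98 ± 0.281 to 43.2 ± 15 CPM (SD, n = 3; log2 difference 3.86 ± 0.39 SE, adjusted p = 5.41e-06). SNURF, named after its values were seen because it lies on the same transcript, went from 3.31 ± 0.524 to 0.913 ± 0.503 CPM (SD, n = 3). How reads were divided between these overlapping entries is not known. PLAGL1, a zinc finger factor that acts on other imprinted genes, rose from 0.878 ± 0.0392 to 10.4 ± 2.16 CPM (SD, n = 3; adjusted p = 8.4e-05). It had already risen by day 1, to 12.6 ± 4.19 CPM (SD, n = 3; adjusted p = 0.000111). DIRAS3, a RAS-related growth suppressor, rose from 0.0142 ± 0.0125 to 1.2 ± 0.141 CPM (SD, n = 3; adjusted p = 0.000293). GPR1, a chemerin receptor gene, fell from 0.52 ± 0.204 to 0.0196 ± 0.034 CPM (SD, n = 3; adjusted p = 0.027), a call lost without any of 4 libraries. Its log2 difference of -4.52 was -8.52 without replicate 1 of day 4. DIRAS3 on day 0 and GPR1 on day 4 were near 0, so both passed the filter on low counts through other libraries. Their calls and places in the count therefore depend on the change itself. MAGEL2 fell from 1.35 ± 0.239 to 0.136 ± 0.0819 CPM between days 0 and 1 and rose to 1.72 ± 0.232 CPM by day 3 (SD, n = 3; adjusted p = 0.000447 and 0.000179).

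Of 15 tested genes in a list mostly read from the maternal copy or by isoform, 4 rose and 3 fell between days 0 and 4. The shares of all genes were 18.0% and 16.2%, and the median of the 15 was 0.29. CALCR, the calcitonin receptor and a gene of the PEG10 cluster, rose from 3.73 ± 1.19 to 49.9 ± 8.7 CPM on day 1 (SD, n = 3; log2 difference 3.74 ± 0.35 SE, adjusted p = 5.28e-06). It was at 30.6 ± 8.59 CPM on day 4 (adjusted p against day 0 of 1.06e-05). ATP10A, a lipid flippase, fell from 8.96 ± 0.837 to 0.721 ± 0.265 CPM (SD, n = 3; adjusted p = 0.000116). IGF2R, the receptor that clears IGF2, was not called between days 2 and 3 (411 ± 46.6 and 512 ± 177 CPM, SD, n = 3, adjusted p = 0.762).

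Around IGF2, 20 other genes of the insulin-like growth factor axis were tested, and 5 rose and 3 fell from day 0 to day 4, against 18.0% and 16.2% of all genes, with a median of 0.49. STC1, a stanniocalcin that blocks the protease releasing IGF from its binding proteins, rose from 38.9 ± 11.5 to 569 ± 159 CPM (SD, n = 3; log2 difference 3.87 ± 0.64 SE, adjusted p = 0.000358). It had first fallen to 5.28 ± 0.511 CPM on day 1 (adjusted p = 0.00606). The binding protein genes IGFBP5 (79.6 ± 94.9 CPM on day 4, SD, n = 3, adjusted p = 0.00154) and IGFBP6 (17.9 ± 8.54 CPM, adjusted p = 0.00337) rose as well. The IGFBP5 log2 difference of 4.59 was 3.0 without replicate 2 of day 4. IRS4, an adaptor of the receptors, fell from 11.3 ± 3.4 to 1.36 ± 0.969 CPM (SD, n = 3; adjusted p = 0.00231). IGF2BP3, an RNA-binding protein of IGF2 transcripts, fell from 332 ± 75.8 to 108 ± 18.7 CPM on day 1 (SD, n = 3; adjusted p = 0.00168).

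Of the 15 tested retrotransposon-derived gag-like relatives of RTL1 and PEG10, 4 rose and 2 fell between days 0 and 4, against 18.0% and 16.2% of all genes, and their median was -0.0. ZCCHC16 rose by 4.45 ± 1.01 on the log2 scale to 3.97 ± 4.81 CPM (SD, n = 3; adjusted p = 0.00354), and PNMAL2 by 2.43 ± 0.56 to 2.85 ± 0.783 CPM (adjusted p = 0.00378). Without replicate 1 of day 4 the ZCCHC16 difference was 2.79, and without replicate 4 of day 0 that of PNMAL2 was 3.05. ARC, a neuronal capsid-forming gene, fell from 9.1 ± 5.44 to 0.198 ± 0.259 CPM (SD, n = 3; adjusted p = 0.00273). Its log2 difference of -5.6 ran from -7.46 without replicate 4 of day 4 to -4.89 without replicate 4 of day 0. Between days 1 and 3, 4 rose and none fell, against 11.9% and 9.14% of all genes.

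Of 7 tested CDK inhibitor genes other than CDKN1C, 4 rose and none fell between days 0 and 4, against 18.0% and 16.2% of all genes, with a median of 1.74. CDKN1B, which encodes p27, rose from 30.0 ± 19.5 to 118 ± 29 CPM (SD, n = 3; log2 difference 1.98 ± 0.44 SE, adjusted p = 0.00329). CDKN2C rose by 6.54 ± 0.89 (adjusted p = 6.95e-05) and CDKN2B by 6.17 ± 1.06 (adjusted p = 0.000468), both to under 3 CPM. With day 0 means of 0.0272 and 0.0269 CPM, these 2 genes passed the filter on low counts through later libraries. Their calls and places in the count therefore depend on the rise itself. Without replicate 1 of day 0 the CDKN1B difference was 2.65, and without replicate 4 of day 0 that of CDKN2B was 7.43. The CDKN1A rise of 1.66 ± 0.59 (adjusted p = 0.0408) was lost on leaving out 4 of the 15 libraries in turn, and was 1.04 without replicate 4 of day 4.

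Beside DLK1, 7 genes of Notch ligands were tested, and 2 rose and 1 fell between days 0 and 4, against 18.0% and 16.2% of all genes, with a median of 1.63. DNER fell from 7.39 ± 1.01 to 1.05 ± 0.149 CPM (SD, n = 3; log2 difference -2.82 ± 0.53 SE, adjusted p = 0.000941). The DLL3 rise of 2.19 ± 0.76 (adjusted p = 0.0363) was lost without any of 4 libraries, and the JAG2 rise of 1.63 ± 0.61 (adjusted p = 0.0499) without any of 11, while without replicate 4 of day 0 it was 2.85. Of 6 tested genes that handle thyroid hormone beside DIO3, 2 were called higher on day 4 than on day 0. Over all genes 18.0% were called higher, and the median log2 difference of the 6 was -1.24 against -0.02 over all genes. THRA, a thyroid hormone receptor gene, rose from 4.04 ± 2.05 to 11.5 ± 1.44 CPM (SD, n = 3; adjusted p = 0.00724). The activating deiodinase DIO2 was called at 6.08 ± 10 CPM on day 4 (SD, n = 3; adjusted p = 0.017), a call lost without replicate 1 of that day (adjusted p = 0.597) and without replicate 1 of day 0 (adjusted p = 0.0733).

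Of 17 tested factors that set or keep imprints, 2 rose and 5 fell between days 0 and 4, against 18.0% and 16.2% of all genes, with a median of -0.3. DNMT3B, a DNA methyltransferase, fell from 1707 ± 288 to 237 ± 78.4 CPM (SD, n = 3; log2 difference -2.85 ± 0.29 SE, adjusted p = 5.33e-06). On day 1 it was already at 641 ± 31.5 CPM (adjusted p = 0.00314). UHRF1, which guides methylation at replication, fell from 171 ± 21.3 to 35.3 ± 6.53 CPM between days 1 and 3 (SD, n = 3; adjusted p = 0.000279). TET2, which oxidises methylated cytosine, rose from 3.98 ± 1.48 to 12.5 ± 4.79 CPM by day 4 (SD, n = 3; adjusted p = 0.00835), and NLRP7 rose from 0.983 ± 0.247 to 9.48 ± 7.68 CPM (log2 difference 3.27, adjusted p = 0.000812; 2.48 without replicate 2 of day 4).

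Placental and yolk sac markers were read because several members are strongly active there. Of 9 trophoblast markers, 8 were in the table, and their sum went from 3.73 to 6.7 CPM on day 0 to between 24.5 and 104 CPM on day 4. GATA3 made up nearly all of it, at 103, 24.1 and 36.7 CPM on day 4, while KRT7 went from 3.36, 2.78 and 5.65 CPM on day 0 to 0, 0 and 0.177 CPM on day 4, PSG1 was at 0 in all libraries and CGA reached no more than 0.0393 CPM. The 6 yolk sac markers summed to between 7.74 and 12.9 CPM on day 0 and between 76.0 and 127 CPM on day 4, led by APOA1 at 98.1, 71.4 and 56.6 CPM, with TTR at 0 in all libraries. AFP went the other way, from 7.74, 2.36 and 2.63 CPM on day 0 to 0.177, 0.0399 and 0.177 CPM on day 4, and APOB went from 3.6, 6.85 and 3.81 CPM to 24.3, 1.98 and 0.283 CPM. Both sums reached their highest values on day 4, as did the means of DLK1, DIO3, IGF2, H19, CDKN1C and PEG10. The H19 means of days 3 and 4 were close (39.8 and 40.6 CPM), but that of day 3 was raised by replicate 1 (91.1 CPM against 14.4 and 13.9 CPM). Without replicate 1 of both days, H19 was higher on day 4 than on day 3 by 1.5 on the log2 scale, not called. RTL1 and MEST had their highest means earlier. The part of such cells in the members' levels was not tested.

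The 5 genes closest to RTL1 over the 15 libraries, among the 13482 genes averaging 1 CPM or more, were PLSCR4, MCF2L2, UPK1B, ZAP70 and IRX3. Likeness was the root mean square difference of centred log2(CPM + 0.5), which ran from 0.56 for PLSCR4 to 0.628 for IRX3. Genes were thus picked by their profile over these same libraries, so a shared pattern of days follows from the choice. PLSCR4, a phospholipid scramblase, shared the late fall, with day means of 2.49 ± 0.236, 47.5 ± 3.02, 75.6 ± 29.1 and 30.1 ± 5.91 CPM on days 1 to 4 (SD, n = 3). UPK1B, a tetraspanin, had means of 0.387 ± 0.0832 CPM on day 1 and 11.1 ± 1.92 CPM on day 2 (SD, n = 3). ZAP70, a kinase best known from T cells, had means of 0.71 ± 0.47 and 30.9 ± 5.53 CPM on those days (SD, n = 3). None of the 5 is in the imprinted lists. Closest to IGF2 were TMEM88 (0.495), ITGA11 (0.514), PITX1 (0.515), TRAPPC9 (0.515) and PDZK1 (0.53), all with their highest means on day 4.

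**Figure D4:**
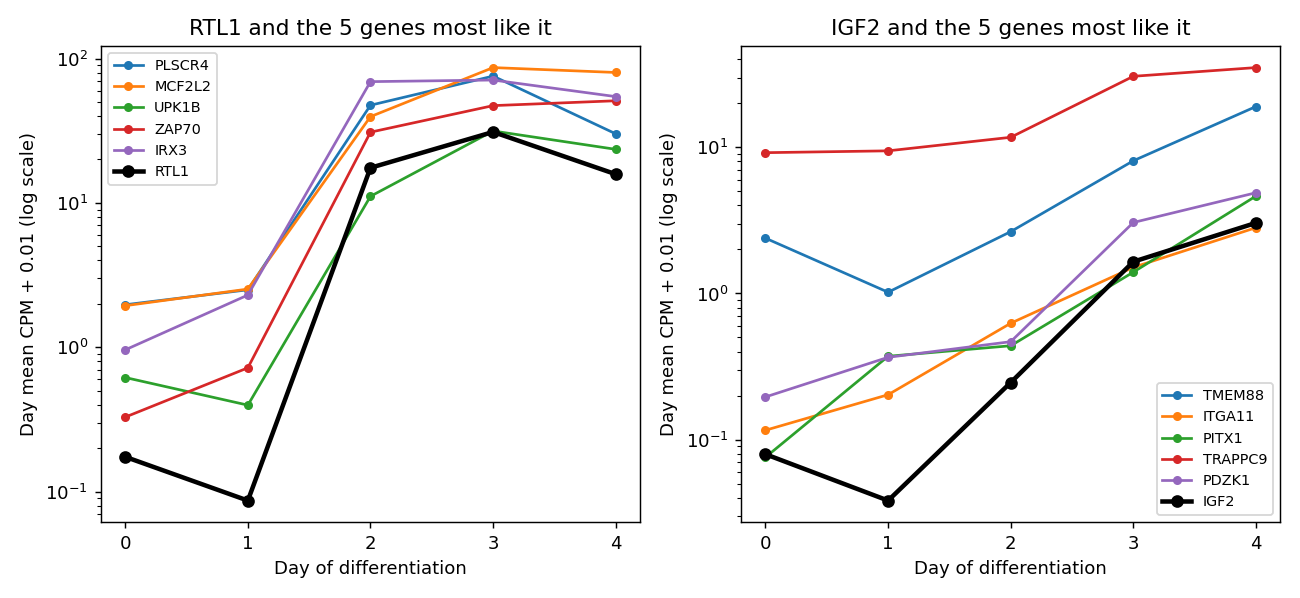
Day means of RTL1 (left) and IGF2 (right) in black with the 5 genes most like each in colour, as CPM plus 0.01 on a log axis against day of differentiation. RTL1 and its 5 genes step up between days 1 and 2, and IGF2 and its 5 genes are highest on day 4. The genes were picked by likeness over these same libraries, so the shared patterns follow from the choice.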

How the data were processed

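Gene counts of 15 polyA-selected, directional RNA-seq libraries (H9 cells, 5 days, 3 libraries per day) were used as deposited by the authors. Reads were aligned with TopHat2 2.0.14 to hg19, per the submitters' processing notes, while for the counting program, its annotation and its use of strand nothing is given in the sources used here. No count is odd, so each fragment appears to enter as 2, and halving the counts was tried. Of 23398 entries, 52 repeated a symbol: 44 identical ones were dropped and 8 summed, which left 23346 symbols.

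The counts were tested with edgeR 4.0.16 (R 4.3.3): TMM scaling, filterByExpr by day (17401 genes kept), a mean per day over all 15 libraries and the quasi-likelihood test, with Benjamini-Hochberg adjustment over all genes. The biological coefficient of variation was 45.6%. CPM were computed here on TMM-scaled library sizes. RTL1 and the steps to day 2 have no test. DESeq2 1.42.0, 2 other scalings, 2 other filters, a replicate block, fits of only the days compared and libraries left out were alternatives.

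Deviations of same-numbered libraries from their day means correlated over 0.1 in all 3 pairs of days 2 and 3 (0.397 to 0.76) and of days 3 and 4 (0.211 to 0.761), but not in those of the other 3 tested comparisons. What the numbers mark is not in the labels. The members and lists were chosen with earlier results of these data known. Beside the members, up to 4 called genes per list and comparison with the largest change could be named, or the 2 most abundant where none was called, plus the 5 genes most like RTL1 and IGF2. MEG9, IGF2-AS, MCTS2P and ERVW-1 were not matched and are not analysed here, and a result of the thyroid hormone list is not reported here. With 54723184 to 145857940 counts per library, precision is limited by the number of libraries except for members with few counts. A limit on a count of 0 (3 counts, over the library total) covers counting error only, and would be higher if each fragment entered as 2. Promoter and microRNA sequences came from RefSeq tables (GRCh38.p14), with windows for 5 of 10 members, and transcript lengths from GENCODE v29, not the build of the counts.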

Additional observations from a re-analysis of the deposited data

How the results depend on the processing

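Of 839 values of single genes under other settings, 807 kept their direction and side of the threshold, 14 became called, 5 lost a call and 13 changed sign without being called in either fit. The 6 rises from day 1 to day 3 and the 6 from day 0 to day 4 stayed called under all 24 alternatives. The 5 lost calls were all of H19 between days 2 and 3; with only those days in the fit its adjusted p was 0.198 at a log2 difference of 3.28. The cause of these changes was not tested.

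Genes called between days 0 and 1 (1806) came to 2837 with DESeq2 and 2913 with the replicate block, and to between 1036 and 2639 with libraries left out. Between days 2 and 3 the 165 genes became 959 with DESeq2, 590 with the block, 0 with only those days and 68 without replicate 1 of days 3 and 4, and between 5 and 247 with libraries left out. Between days 3 and 4 the 0 genes became 66 with DESeq2 and 0 to 1 with libraries left out. Between days 1 and 3 leaving out libraries gave 2083 to 4057 genes against 3662, and between days 0 and 4 it gave 4051 to 6640 against 5948. Members called between days 0 and 1 (0) became 1 with DESeq2 (H19), 1 with the block (DIO3), 2 with only those days (H19 and PEG10), 1 without replicate 1 of days 3 and 4 (H19), and 0 to 1 with libraries left out. Members called between days 2 and 3 (1) became 3 with DESeq2 (also IGF2 and CDKN1C), 2 with the block (also CDKN1C), 0 with only those days, 0 without replicate 1 of days 3 and 4, and 0 to 1 with libraries left out. Members called between days 0 and 4 were 7 with the block, where MEST fell by 1.18 on the log2 scale (adjusted p = 0.00889).

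The block is an alternative, because the labels do not say what the replicate numbers mark and same-numbered libraries deviated together on some days only. Over 30 pairs of equal number on different days, deviations from the day means correlated at -0.37 to 0.761 (median 0.302), 22 of them over 0.1, and in 18 the own number gave the best match, a hint of pairing from the data. RTL1's step from day 1 to day 2 was 4.95 on the log2(CPM + 0.5) scale and 6.67 with a pseudocount of 0.1.

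The signs that changed, all in differences that were not called, were these. MEST between days 1 and 3 (-0.59 to 0.02 with libraries left out) was at 0.02 without replicate 4 of day 3. MEST between days 2 and 3 (-0.29 to 0.34) was at 0.02 with library totals alone, 0.22 without replicate 1 of day 2, 0.06 without replicate 2 of day 2 and 0.34 without replicate 4 of day 3. PEG10 between days 2 and 3 (-0.65 to 0.17) was at 0.0 without replicate 1 of day 2 and 0.17 without replicate 4 of day 3. MEST between days 3 and 4 (-0.64 to 0.43) was at -0.40 without replicate 1 of both days, -0.21 without replicate 4 of day 3 and -0.64 without replicate 1 of day 4. H19 between days 3 and 4 (-0.36 to 1.53) was at -0.35 without replicate 2 of day 3, -0.36 without replicate 4 of day 3 and -0.07 without replicate 4 of day 4. Depth limits MEG3, PEG3 and IGF2 on days 0 to 2, where a few counts set the value.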

Other observations

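The entry for MIR1247, a microRNA gene beside DIO3, held 1202 counts over 12 libraries, the highest being 456, unlike the microRNA entries opposite RTL1, which held none. DIO3OS, which lies in the same stretch, held 828 counts over 14 libraries. Whether these counts are reads of the microRNA precursor, of DIO3OS or of DIO3 cannot be told apart without the strand used in counting. The 5 neural ectoderm markers summed to between 67.5 and 125 CPM on day 0 and between 197 and 830.4 CPM on day 4. OTX2, a gene that anterior endoderm also expresses, made up nearly all of it, at 194, 769.7 and 455 CPM on day 4. PAX6 was at 2.34, 60.5 and 17.5 CPM on day 4, while SIX3 went from 0.357 to 3.17 CPM on day 0 to no more than 0.24 CPM. The 6 mesoderm markers summed to between 1.41 and 1.75 CPM on day 0 and between 59.5 and 284 CPM on day 3. HAND1 was the largest part on day 3, at 262, 47.1 and 107 CPM. The 6 fibroblast or muscle markers summed to between 205 and 497 CPM on day 0 and between 148 and 272 CPM on day 4.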
